A study of Mus musculus with 12 samples.

Results

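The 47 genes described here encode the DNA replication machinery and the factors that carry a cell from G1 into S phase. They were named by a list of gene symbols. All 47 had a probe set with that symbol alone on the array, among 19938 genes named in this way, and each gene was read from its probe set of highest mean. All 47 lay above the filter on dim genes, as did 13956 genes in all. The cells were fibroblasts of mouse embryos, a connective tissue cell that is easily cultured. The 4 groups of 3 arrays each were MLL1 knockout cells at 30 h, MLL1 knockout cells at 18 h, wild-type cells at 30 h and wild-type cells at 18 h. MLL1 is a histone H3 lysine methyltransferase encoded by Kmt2a. All cells had grown in medium with 5% fetal bovine and 5% newborn calf serum, and all had received a 2 h shock of 50% horse serum, a pulse that sets the circadian clocks of a culture to a common phase. Times count from this shock. The labels do not give the knockout allele, the number of embryos or lines behind each genotype, or whether the replicates came from separate cultures. The p-values therefore rest on how far these arrays scatter, and that scatter may be technical.

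Replication origins are licensed in G1, when the origin recognition complex, CDC6 and CDT1 load the MCM helicase onto DNA. At the start of S phase CDC45 and the GINS complex activate that helicase, primase and the polymerases copy the strands, and the clamp PCNA with its loader RFC holds the polymerases on the template. Many of these genes are targets of E2F transcription factors, which the retinoblastoma proteins hold inactive until cyclin D and cyclin E kinases phosphorylate them, and serum is the classical signal that drives resting fibroblasts through this step.

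E2F factors bind in the promoters of such genes, and 38 of the 47 genes had a window in RefSeq's promoter table (build GRCm38.p6), which runs from 250 bases before to 50 bases after an annotated start site. Both strands were searched for 4 E2F words, TTTCCCGC, TTTGGCGC, TTTCGCGC and TTTGCCGC, for the NF-Y word CCAAT and for the E-box word CACGTG, which the clock factors CLOCK and BMAL1 are known to bind. Of the 38 genes, 15 held an E2F word (39.5%), against 2.6% of all 27025 genes in the table. CCAAT was present in 22 of them (57.9%, against 41.1% of all genes) and CACGTG in 6 (15.8%, against 8.09%). There were 4 pairs of overlapping matches in these genes. The matches are a description of the letters and not of binding. Many of the genes are known E2F targets and the words were chosen after the values had been seen, so these shares are no test. The windows of 6 genes on which the results below turn are shown, with matches in capitals. Mcm5 and Cdc6 had the largest differences with time in wild type, Cdt1 and Pold1 were among the genes whose time course differed most between the genotypes, and Ccne1 and Tyms rose with time in both genotypes.
Mcm5, chr8:75109259-75109558, plus strand: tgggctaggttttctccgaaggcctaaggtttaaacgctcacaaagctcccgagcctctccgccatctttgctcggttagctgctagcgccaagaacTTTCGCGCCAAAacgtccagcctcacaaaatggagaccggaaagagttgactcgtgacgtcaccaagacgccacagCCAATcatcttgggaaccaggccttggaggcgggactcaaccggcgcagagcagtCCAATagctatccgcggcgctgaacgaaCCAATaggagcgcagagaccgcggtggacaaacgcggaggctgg
Cdc6, chr11:98907901-98908200, plus strand: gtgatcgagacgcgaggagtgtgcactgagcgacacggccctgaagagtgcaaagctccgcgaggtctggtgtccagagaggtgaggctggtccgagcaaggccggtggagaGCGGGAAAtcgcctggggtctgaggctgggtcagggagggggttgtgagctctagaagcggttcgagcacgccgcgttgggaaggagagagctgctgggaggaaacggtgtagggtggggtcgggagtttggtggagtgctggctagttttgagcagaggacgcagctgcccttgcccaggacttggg
Cdt1, chr8:122567765-122568064, plus strand: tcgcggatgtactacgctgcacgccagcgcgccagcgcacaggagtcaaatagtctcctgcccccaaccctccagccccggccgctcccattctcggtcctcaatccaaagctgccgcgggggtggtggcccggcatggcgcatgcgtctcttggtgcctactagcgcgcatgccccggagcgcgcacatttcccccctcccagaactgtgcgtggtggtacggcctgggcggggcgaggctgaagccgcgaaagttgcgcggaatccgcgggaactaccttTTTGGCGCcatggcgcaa
Pold1, chr7:44548766-44549065, minus strand: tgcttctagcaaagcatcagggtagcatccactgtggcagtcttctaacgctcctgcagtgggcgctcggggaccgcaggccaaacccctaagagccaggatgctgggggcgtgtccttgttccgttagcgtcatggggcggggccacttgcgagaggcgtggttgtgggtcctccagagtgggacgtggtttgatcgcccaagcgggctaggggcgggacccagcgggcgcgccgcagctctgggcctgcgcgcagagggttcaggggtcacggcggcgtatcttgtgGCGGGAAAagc
Ccne1, chr7:38107441-38107740, minus strand: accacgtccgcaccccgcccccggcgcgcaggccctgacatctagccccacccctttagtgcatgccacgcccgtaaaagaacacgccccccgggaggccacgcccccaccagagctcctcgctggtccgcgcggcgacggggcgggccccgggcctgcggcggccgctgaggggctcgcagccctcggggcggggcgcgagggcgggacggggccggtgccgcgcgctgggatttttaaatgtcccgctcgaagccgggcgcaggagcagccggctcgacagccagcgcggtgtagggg
Tyms, chr5:30073576-30073875, minus strand: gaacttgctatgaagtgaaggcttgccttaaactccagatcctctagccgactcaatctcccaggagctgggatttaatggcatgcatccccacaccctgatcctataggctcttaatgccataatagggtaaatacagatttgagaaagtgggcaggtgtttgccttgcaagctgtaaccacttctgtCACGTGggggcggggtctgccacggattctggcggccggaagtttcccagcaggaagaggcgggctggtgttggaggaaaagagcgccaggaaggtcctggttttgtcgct
In the Mcm5 window TTTCGCGC on the gene's strand and TTTGGCGC on the opposite strand overlap, with their first bases at positions -153 and -149 from the start site, and CCAAT follows at -77, -22 and 6. Cdc6 and Pold1 hold TTTCCCGC on the opposite strand, at -138 and at 39. Cdt1 holds TTTGGCGC at 32, and Tyms holds CACGTG at -61. The Ccne1 window holds none of the words searched.

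**Figure D1:**
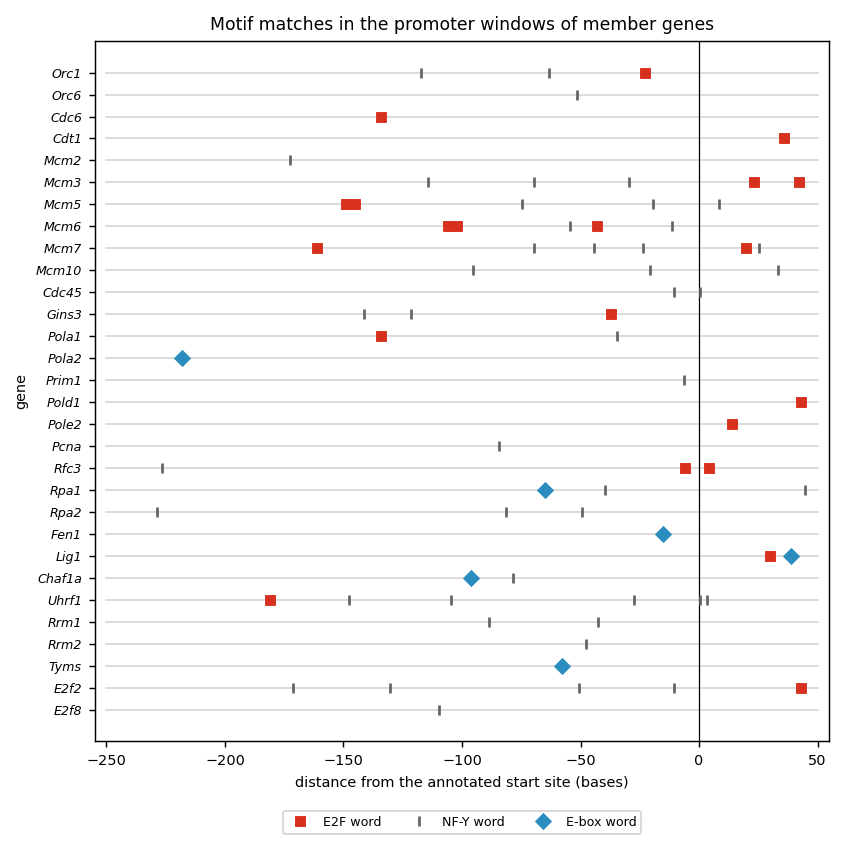
Matches to the motif words in the promoter windows of the genes that hold at least 1, with distance from the annotated start site in bases on the horizontal axis and genes in rows by role. E2F words occur in 15 genes, the NF-Y word in 22 and the E-box word in 6, and all windows of a gene share its row.

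Replicate arrays had correlations of 0.984 to 0.996 and arrays of opposite genotype 0.771 to 0.831, and the median intensity per array ran from 273.3 to 311.8. Knockout 18 h replicate 1 stood apart from replicates 2 and 3 on the second principal component, so the counts below are also given without it. Kmt2a, the targeted gene, had 1338, 1367 and 1584 in knockout at 30 h and 2120.2, 2174 and 1959.7 in knockout at 18 h, against 2129, 2155 and 2069 in wild type at 30 h and 2265, 2824 and 2099.7 in wild type at 18 h. Where its probes lie relative to the disrupted part is not given, so these values do not check the labels. Of 12 fibroblast markers 10 lay above the filter, and 4 of them were higher and 5 lower in knockout at each time, with log2 differences from -2.93 to 4.33 at 30 h and from -3.22 to 3.74 at 18 h. These are 40% and 50% of the 10 markers. Of all genes 24.3% were higher and 28.6% lower at 30 h, and 26.3% and 33.8% at 18 h. Among the fibroblast markers the collagen genes Col1a1 and Col1a2 were high in every array, at 7524 to 9527 and 6905 to 8339.6 in knockout and at 6095 to 6710.1 and 6128 to 7198 in wild type. Pdgfra, a growth factor receptor gene of the same list, was at 354 to 445 in knockout and at 3203 to 4040.1 in wild type. None of 5 endothelial markers lay above the filter. Their summed intensity was 606 to 644 in knockout at 30 h and 663 to 824 in knockout at 18 h. In wild type it was 541 to 640 at 30 h and 531 to 611 at 18 h. Of 5 epithelial markers 4 lay above the filter, and none of these passed between the genotypes by limma, where at an unadjusted p under 0.05 there were 0 at 30 h and 2 higher in knockout at 18 h. At that unadjusted level 3733 of all 13956 genes were higher and 4269 lower at 30 h, and 3856 and 4930 at 18 h. The summed intensity of the 5 epithelial markers was 1135 to 1249.9 in knockout at 30 h and 1193 to 1234 in knockout at 18 h. In wild type it was 1074 to 1229 at 30 h and 925 to 1156 at 18 h. The summed intensity of 7 blood cell markers, 4 of them above the filter, was 1851 to 2006 in knockout at 30 h and 2336 to 3997 in knockout at 18 h. In wild type it was 1838 to 1990.4 at 30 h and 2124 to 2191 at 18 h. Of the 4 blood markers above the filter 1 was higher and 0 lower in knockout at each time (25% and 0%). With time in knockout 1 rose and 1 fell (25% each, against 20.9% and 18.4% of all genes), with log2 differences from -1.42 to 0.55. The part of these markers in the results below was not tested.

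In wild-type cells these genes were higher at 30 h than at 18 h. All 47 had a positive log2 difference, from 0.13 for E2f1 to 0.71 for Mcm5, with a median of 0.35, and 33 passed the test (limma, adjusted p under 0.05 over all tested genes). Over all 13956 genes 2.41% passed as higher and 1.55% as lower, and the median was -0.01. None of the 47 fell in this test, and at an unadjusted p under 0.05 there were 42 higher and 0 lower. At that unadjusted level 1382 of all 13956 genes were higher and 1175 lower. Of all genes called here 60.9% were higher, or 81.0% with the array medians set equal. The 30 h and 18 h arrays did not overlap in 44 of the 47 genes, against 25.6% of all genes, and the 3 that overlapped were Rfc3, Rfc4 and Dut. In RNA from whole cultures, more cells in S phase and more RNA per cell cannot be told apart.

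Licensing genes included the largest rises. Mcm5, a subunit of the replicative helicase, had 3002, 3038 and 3319 in wild type at 30 h, against 1800.2, 1729 and 2190.3 at 18 h, a log2 difference with its standard error of 0.71 ± 0.09, adjusted p = 0.000357. Cdc6, which helps to load that helicase, had 1062, 989.6 and 1192 at 30 h, against 679.6, 699 and 625 at 18 h (0.68 ± 0.09, adjusted p = 0.000598). In both genes every 30 h array stood above every 18 h array. Cdt1, the partner of CDC6 in loading, rose by 0.43, Mcm2 by 0.49, Mcm3 by 0.49, Mcm7 by 0.47, Mcm4 by 0.35 and Orc6, a subunit of the origin recognition complex, by 0.32. Mcm6 (0.22 ± 0.06, adjusted p = 0.0659) and the origin recognition gene Orc1 (0.40 ± 0.11, adjusted p = 0.0525) did not pass, so 8 of 10 licensing genes rose.

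Among the 8 genes of helicase activation and the fork 4 rose in wild type, with Gins1 at 0.43, Cdc45 at 0.42, the fork assembly factor Mcm10 at 0.32 and Gins2 at 0.30. The other 4, Gins3 (0.26), Gins4 (0.22), Timeless (0.19) and Tipin (0.27), did not pass. Of the 7 polymerase and primase genes 5 rose, all by a similar size. Prim2, the large primase subunit, had 0.37, the polymerase alpha accessory subunit Pola2 0.36, the catalytic subunit of polymerase delta Pold1 0.35, the catalytic primase subunit Prim1 0.35 and the catalytic subunit of polymerase epsilon Pole 0.30. The catalytic subunit of polymerase alpha Pola1 (0.16) and Pole2 (0.21) did not pass.

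In the group of the clamp, its loader, RPA and Okazaki fragment processing 4 of 8 rose. Rpa2, a subunit of the complex that coats single-stranded DNA, rose by 0.56, the DNA ligase gene Lig1 by 0.40, the clamp gene Pcna by 0.31 and Rpa1 by 0.25. The flap nuclease gene Fen1 had 806, 813 and 1053 in wild type at 30 h, against 714, 586 and 666 at 18 h, and with 0.43 ± 0.12, adjusted p = 0.054 it did not pass. None of the 3 clamp loader genes passed, with Rfc5 at 0.30, Rfc3 at 0.27 and Rfc4 at 0.13. Pcna was read by 2 probe sets whose values lay close together in every array, 10070.1 and 9949 in wild-type 30 h replicate 1 for example, so signal of a related sequence cannot be told apart from that of Pcna here.

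All 3 chromatin genes rose in wild type, namely Uhrf1, which brings the maintenance methyltransferase to replicated DNA, by 0.52, and the chromatin assembly factor genes Chaf1b by 0.48 and Chaf1a by 0.31. Nucleotide supply rose in 4 of 5 genes. Thymidine kinase Tk1 rose by 0.51, the small ribonucleotide reductase subunit Rrm2 by 0.44, thymidylate synthase Tyms by 0.42 and the large reductase subunit Rrm1 by 0.34. Dut, which removes dUTP, had 0.19 and did not pass. Of the E2F factors and cyclins 5 of 6 rose. Both cyclin E genes were among them, Ccne2 by 0.60 and Ccne1 by 0.58, as were Ccnd1 by 0.54, the repressor E2f8 by 0.52 and the activator E2f2 by 0.35. E2f1 had 1663, 1645 and 1848 at 30 h, against 1499, 1611 and 1599 at 18 h, and with 0.13 ± 0.07, adjusted p = 0.387 it did not pass.

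The number of calls in wild type moved with the arrays used. Of the 47 genes 17 passed without wild-type 30 h replicate 3, 21 without wild-type 30 h replicate 1 and 21 without wild-type 18 h replicate 2, while all 47 differences stayed positive with any of the 12 arrays left out. Without knockout 18 h replicate 1 the number was 37. Over all 13956 genes 337 rose in the main test, and 74, 109 and 111 rose without the 3 wild-type arrays, in the same order. Without knockout 18 h replicate 1, 605 of all genes rose.

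**Figure D2:**
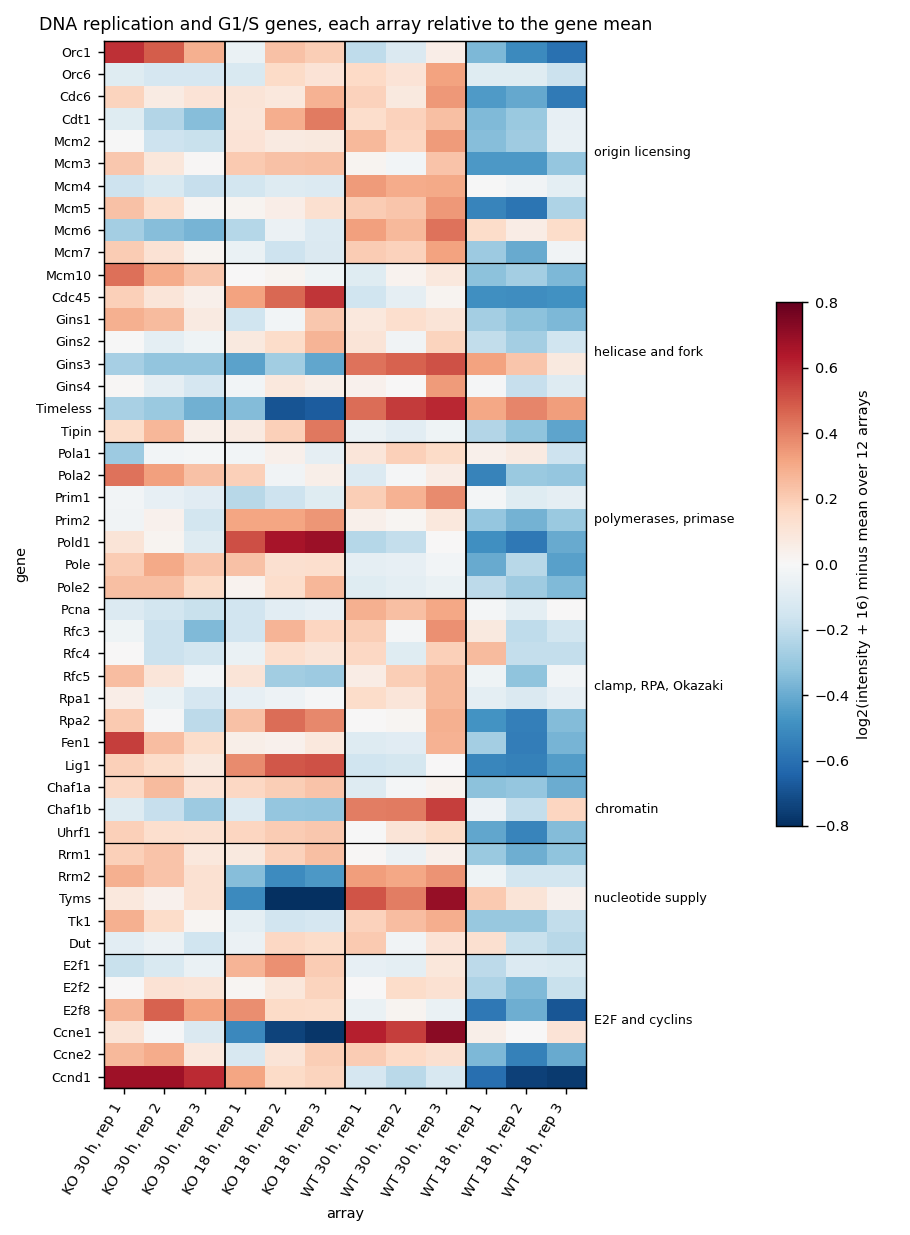
Each of the 47 genes (rows, by role) in each of the 12 arrays (columns), as log2(intensity + 16) minus the gene's mean over the 12 arrays. In wild type the 30 h columns lie above the 18 h columns, with a median gene difference of 0.35, while in knockout the 30 h and 18 h columns differ in both directions, with a median of -0.02.

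In knockout cells the set did not move one way between the times. Of the 47 genes 10 rose and 10 fell, and 27 did not pass. This is 21.3% in each direction, where 20.9% of all genes rose and 18.4% fell, so the shares are near the background. The median log2 difference was -0.02, with 0.02 over all genes, and the 30 h and 18 h arrays did not overlap in 22 of 47 genes, against 46.2% of all genes. Without knockout 18 h replicate 1 there were 10 rises and 11 falls, with 3278 and 2714 over all genes.

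The knockout rises were led by nucleotide and cyclin genes. Tyms, which makes thymidylate, had 2817, 2716 and 2885 in knockout at 30 h, against 1861, 1521 and 1428 at 18 h (0.81 ± 0.09, adjusted p = 8.87e-06). Ccne1, the regulatory subunit of a kinase that starts S phase, had 2018, 1867 and 1734 at 30 h, against 1309, 1119 and 1092 at 18 h (0.67 ± 0.08, adjusted p = 1.56e-05). Rrm2 had 6213, 5983 and 5571 at 30 h, against 4029, 3600.0 and 3705 at 18 h (0.65 ± 0.06, adjusted p = 1.55e-06). In all 3 genes the times did not overlap, and knockout 18 h replicate 1 was the highest of the 18 h arrays. Ccnd1, the growth factor responsive cyclin, rose by 0.43. The remaining rises were smaller, with Orc1 at 0.32, Mcm10 at 0.32, Tk1 at 0.27, Pola2 at 0.26, the fork protection gene Timeless at 0.25 and Mcm7 at 0.22. In Timeless the times overlapped, and its call ended under 17 of 27 other settings and that of Mcm7 under 15. The other probe set of Tk1 had 2221, 1917 and 1877 in knockout at 30 h, against 1922, 1804 and 1679 at 18 h, and there the times overlapped. The call of Orc1 ended without knockout 18 h replicate 1 (0.23, adjusted p = 0.104).

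The knockout falls were led by Pold1 and Cdt1. Pold1 had 1303, 1226 and 1124 in knockout at 30 h, against 1740.3, 1921 and 1957 at 18 h (-0.62 ± 0.09, adjusted p = 4.83e-05). Cdt1 had 1598, 1450.0 and 1348 at 30 h, against 1831, 2094 and 2286 at 18 h (-0.49 ± 0.10, adjusted p = 0.000689). Both genes lay lower in every 30 h array than in any 18 h array. On the log2 scale E2f1 fell by 0.40, Prim2 fell by 0.37, Rpa2 fell by 0.36, Cdc45 fell by 0.34 and Lig1 fell by 0.32. Smaller falls were those of Gins2 (-0.20), Mcm6 (-0.20) and Mcm2 (-0.20), and the calls of Gins2 and Mcm2 each ended under 13 of 27 other settings. That of Mcm2 ended without knockout 18 h replicate 1 among others (-0.19, adjusted p = 0.0836). No chromatin gene passed in either direction, with Chaf1b at 0.05, Chaf1a at -0.02 and Uhrf1 at -0.05.

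The number of knockout calls moved with single arrays. The 10 rises became 5 without knockout 30 h replicate 1 and 6 without replicate 2 of that group. Over all genes 2912 rose in the main test, and 2478 and 2379 in these runs, in the same order. The 10 falls became 6 without knockout 18 h replicate 2 and 6 without knockout 30 h replicate 3. Over all genes 2572 fell in the main test, and 2029 and 2382 in the runs of that sentence, in the same order.

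**Figure D3:**
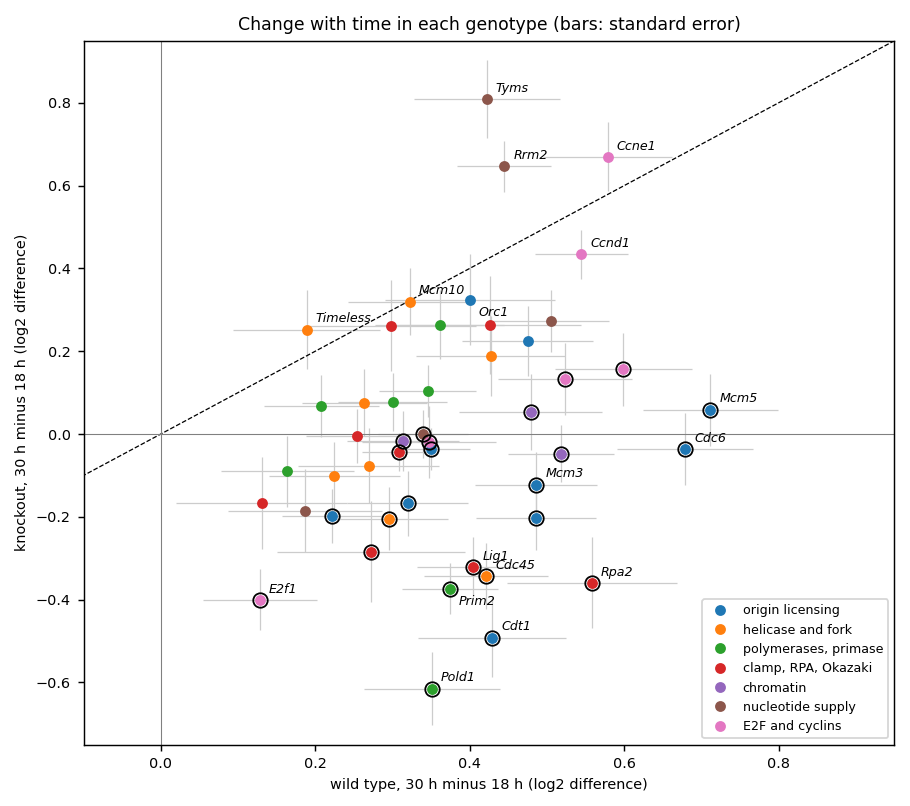
Log2 difference of 30 h minus 18 h for each gene, in knockout on the vertical axis and in wild type on the horizontal axis, with standard errors as bars and the line of equal change dashed. Rings mark the 24 genes whose time effect was lower in knockout, and of the 47 genes Tyms, Rrm2, Ccne1 and Timeless lie above the dashed line.

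The difference between the time courses was then tested gene by gene, as the time effect in knockout minus that in wild type. It was negative in 43 of 47 genes, with a median of -0.35 (0.04 over all genes). It passed as lower in 24 and as higher in 0, where 10.1% of all genes passed as lower and 10.2% as higher. Of all genes called in this comparison 50.3% were higher, but 30.1% with the array medians set equal and 37.4% after cyclic loess. At an unadjusted p under 0.05 there were 31 lower and 2 higher among the 47 genes, where 2150 of all 13956 genes were lower and 2427 higher. Without knockout 18 h replicate 1 limma called 29 lower and 2 higher, Tyms (0.50, adjusted p = 0.00326) and Rrm2 (0.25, adjusted p = 0.0323). Over all genes it called 1886 lower and 2259 higher in that run.

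Licensing genes made up 8 of the 24, with Cdt1 at -0.92, Cdc6 at -0.72, Mcm2 at -0.69, Mcm5 at -0.65, Mcm3 at -0.61, Orc6 at -0.49, Mcm6 at -0.42 and Mcm4 at -0.39. Pold1 had the lowest value of all 47 (-0.97 ± 0.12, adjusted p = 0.000139). Values of similar size were those of Rpa2 (-0.92 ± 0.16, adjusted p = 0.000951), Cdc45 (-0.76), Prim2 (-0.75) and Lig1 (-0.73). Rfc3 at -0.56 and Pcna at -0.35 passed too, as did Gins2 at -0.50. Uhrf1 at -0.57, Chaf1b at -0.43 and Chaf1a at -0.33 put all 3 chromatin genes in this group. Of the E2F factors and cyclins E2f1 at -0.53, Ccne2 at -0.44, E2f8 at -0.39 and E2f2 at -0.37 passed, and of nucleotide supply Rrm1 at -0.34.

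Genes that did not pass this test were spread over the roles. The differences of Ccne1 (0.09 ± 0.12, adjusted p = 0.654) and Ccnd1 (-0.11 ± 0.08, adjusted p = 0.413) did not pass, and both genes rose with time in each genotype. Mcm10 (-0.0025 ± 0.11, adjusted p = 0.991) and Timeless (0.06 ± 0.13, adjusted p = 0.801) did not pass either. Tyms (0.39 ± 0.13, adjusted p = 0.0512) and Rrm2 (0.20 ± 0.09, adjusted p = 0.113) had the highest values of the 47. Of the cyclin E genes Ccne2 was lower and Ccne1 not called, and the contrast between them was not tested.

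**Figure D4:**
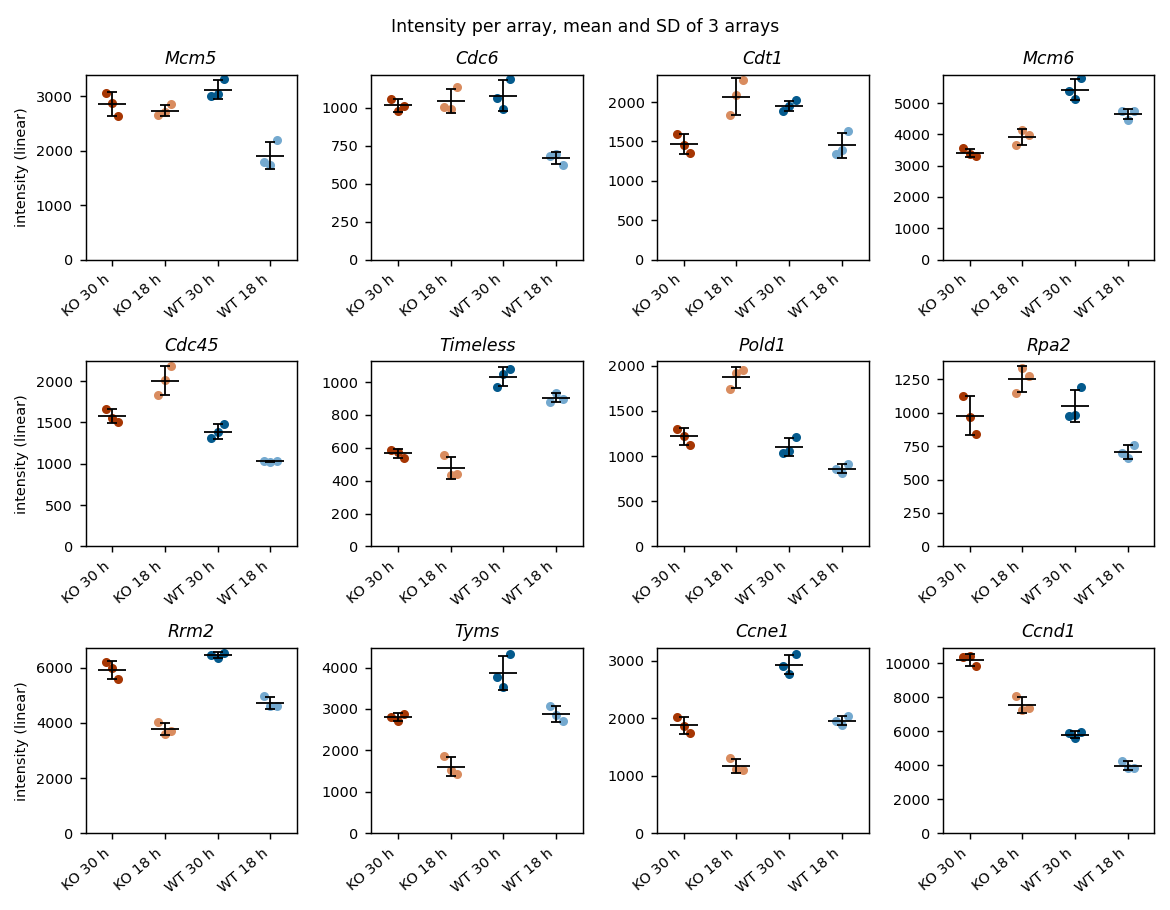
Intensity on the linear scale in each of the 12 arrays for 12 genes, with points for arrays and bars for the mean and SD of 3 arrays, in the order knockout 30 h, knockout 18 h, wild type 30 h and wild type 18 h. Pold1, Cdt1 and Rpa2 are lower at 30 h than at 18 h in knockout and higher at 30 h in wild type, while Tyms, Rrm2, Ccne1 and Ccnd1 are higher at 30 h in both genotypes.

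At 18 h more of these genes were higher than lower in knockout compared with wild type. The test called 27 of 47 higher and 7 lower, with a median log2 difference of 0.35 (-0.03 over all genes), where 26.3% of all genes were called higher and 33.8% lower. In 36 of 47 genes knockout and wild-type arrays did not overlap, against 63.1% of all genes. This comparison shares its wild-type 18 h arrays with the wild-type time course and its knockout 18 h arrays with the knockout one. Without knockout 18 h replicate 1, 30 genes were higher and 7 lower, with 3687 and 4769 over all genes. The knockout 18 h mean lay between the wild-type 30 h and 18 h means in 14 genes, above both in 21 and below both in 12. These positions were not counted over all genes, so they have no background here.

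Polymerase delta had the largest difference at 18 h. Pold1 had 1740.3, 1921 and 1957 in knockout, against 855, 809.7 and 909 in wild type (1.11 ± 0.09, adjusted p = 9.28e-09). Lig1, which seals Okazaki fragments, had 2254, 2441 and 2462 in knockout, against 1199, 1183 and 1266 in wild type (0.96 ± 0.07, adjusted p = 5.09e-09). Cdc45 had 1827, 2009 and 2178 in knockout, against 1035, 1026 and 1037 in wild type (0.94 ± 0.08, adjusted p = 2.42e-08). In these 3 genes every knockout array lay above every wild-type array. Ccnd1, which encodes cyclin D1, had 8102, 7228 and 7353 in knockout, against 4269, 3859 and 3817 in wild type (0.92 ± 0.06, adjusted p = 8.04e-10), again with no overlap. Rpa2 was higher by 0.81, E2f8 by 0.77, Prim2 by 0.65, Mcm3 by 0.64, Cdc6 by 0.63, Uhrf1 by 0.63 and Orc1 by 0.61. The activators E2f1 and E2f2 were higher by 0.43 and 0.35. Tk1 was not called (0.14 ± 0.07, adjusted p = 0.109). The other probe set of Tk1 had 1922, 1804 and 1679 in knockout, against 1435, 1438 and 1450 in wild type. No test of that probe set is given, so the Tk1 result at 18 h holds for the probe set used.

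The 7 genes that were lower in knockout at 18 h came from 5 of the 7 roles. Timeless had 554, 432 and 441 in knockout, against 881, 935 and 898 in wild type (-0.91 ± 0.10, adjusted p = 3.08e-07). Its binding partner in the fork protection complex, Tipin, was higher instead, by 0.55, with 1569, 1707 and 2004 in knockout and 1265, 1190.5 and 1111 in wild type. Tyms had 1861, 1521 and 1428 in knockout, against 3074, 2848 and 2713 in wild type (-0.84 ± 0.09, adjusted p = 7.32e-07). In each of these genes the genotypes did not overlap. Ccne1 had 1309, 1119 and 1092 in knockout, against 1948, 1884 and 2033 in wild type (-0.73 ± 0.08, adjusted p = 9.04e-07), while its paralog Ccne2 was higher by 0.49. Gins3 had a difference of -0.58, although Gins1 at 0.33 and Gins2 at 0.38 were higher and Gins4 at 0.14 was not called. Rrm2 had -0.32, against 0.50 for its partner subunit Rrm1, and Mcm6 had -0.25. Chaf1b had -0.23 ± 0.09, adjusted p = 0.0449, a call that ended under 16 of 27 other settings.

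At 30 h fewer of the genes were higher in knockout than lower. The test called 10 genes higher and 15 lower, with a median of -0.10 (0.02 over all genes), where 24.3% of all genes were called higher and 28.6% lower, shares near those of the 47 genes (21.3% and 31.9%). In 29 of 47 genes knockout and wild-type arrays did not overlap, against 61.5% of all genes. Without knockout 18 h replicate 1, which enters only through the estimate of the spread, 13 genes were higher and 15 lower. Over all genes these counts were 3588 and 4214. All 10 genes called higher at 30 h were also called higher at 18 h. They were Ccnd1 (0.81), Orc1 (0.54), E2f8 (0.38), Pola2 (0.35), Mcm10 (0.31), Pole (0.30), its partner Pole2 (0.29), Lig1 (0.24), Chaf1a (0.21) and Rrm1 (0.16). Ccnd1 had 10384, 10427 and 9822 in knockout at 30 h, against 5905, 5589 and 5937 in wild type, and every knockout array lay above every wild-type array.

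Timeless had the lowest difference at 30 h, with 589, 573 and 538 in knockout and 970.0, 1051 and 1082 in wild type (-0.85 ± 0.10, adjusted p = 9.75e-07). Of the 6 genes that were lower at both times, the others were Gins3 at -0.77, Mcm6 at -0.67, Chaf1b at -0.65, Ccne1 at -0.64 and Tyms at -0.46. Among the MCM helicase genes Mcm4 had 4332, 4458 and 4277 in knockout, against 6162, 5967 and 5982 in wild type (-0.47 ± 0.05, adjusted p = 6.26e-07), and Mcm2 had a difference of -0.37. Mcm3 at 0.03, Mcm5 at -0.13 and Mcm7 at -0.12 did not pass, so 3 of the 6 genes of this ring were called lower, and the differences between its subunits were not tested. Pcna had 7662, 7460.2 and 7320.5 in knockout, against 10070.1, 9800.1 and 10266 in wild type (-0.42 ± 0.05, adjusted p = 7.81e-07), with no overlap. Prim1 at -0.34, Pola1 at -0.26, Rfc3 at -0.37, Orc6 at -0.32 and Rpa1 at -0.21 were the other genes lower at 30 h and not called at 18 h. Cdt1 and Mcm2 were called lower in knockout at 30 h and higher at 18 h, with -0.41 and 0.51 for Cdt1 and -0.37 and 0.32 for Mcm2. Averaged over both times 24 genes were higher and 10 lower, where 29.4% of all genes were higher and 35.8% lower.

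**Figure D5:**
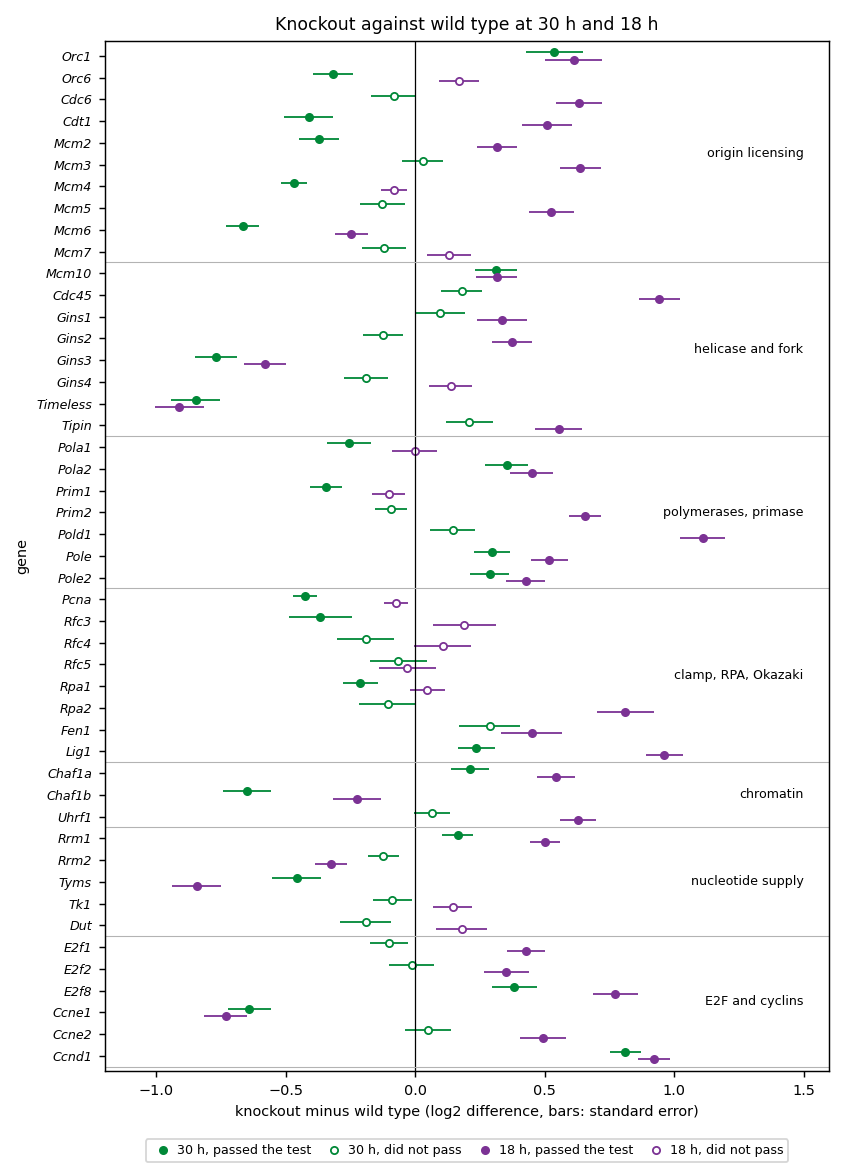
Log2 difference of knockout minus wild type for each of the 47 genes (rows, by role) at 30 h and at 18 h, with standard errors as bars and filled points for values that passed the test. At 30 h 10 points passed right of 0 and 15 left of it, and at 18 h 27 and 7, with Timeless, Gins3, Mcm6, Tyms and Ccne1 left of 0 at both times.

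As a mean over the 47 genes, log2 intensity per array was 10.93 to 11.06 in knockout at 30 h, 10.95 to 11.01 in knockout at 18 h, 11.04 to 11.16 in wild type at 30 h and 10.67 to 10.74 in wild type at 18 h. The wild-type 18 h arrays thus lay below the arrays of the other 3 groups. Over all tested genes the same mean was 9.62 to 9.72 in all 12 arrays.

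Other genes of the pathway were also higher at 30 h in wild type. Of 49 further replication and G1/S genes 20 rose between 18 h and 30 h (40.8%, against 2.41% of all genes) and 0 fell, with a median log2 difference of 0.24. At an unadjusted p under 0.05 there were 33 higher and 0 lower, where 1382 of all 13956 genes were higher and 1175 lower. The largest rises in the list were those of the E2F repressor gene E2f7 (0.61), the histone chaperone gene Asf1b (0.54) and the pyrimidine synthesis gene Umps (0.51). In knockout 17 rose (34.7%, against 20.9% of all genes) and 10 fell (20.4%, against 18.4%), led by the histone chaperone gene Nasp (0.98) and by Pold4 (-0.98), a small subunit of polymerase delta. The difference of the time effects was lower in 18 (36.7%, against 10.1% of all genes) and higher in 3 (6.12%, against 10.2%), with Pold4 at -1.07, the origin kinase gene Cdc7 at -1.04 and the CTP synthase gene Ctps at -1.04. At 18 h 24 were higher in knockout (49.0%, against 26.3% of all genes) and 15 lower (30.6%, against 33.8%). Ctps had 2927, 3843 and 3641 in knockout, against 1129, 1041 and 1152 in wild type (1.63), and the dNTP hydrolase gene Samhd1 had 2470.2, 2826 and 2686, against 6367, 6385 and 6113 (-1.24). At 30 h 15 were higher in knockout (30.6%, against 24.3% of all genes) and 20 lower (40.8%, against 28.6%).

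Of 16 genes of CDK inhibitors, the retinoblastoma family, the repressive E2F factors and the DREAM complex 0 passed with time in wild type by limma, with 2 higher and 1 lower at an unadjusted p under 0.05. At that unadjusted level 1382 of all 13956 genes were higher and 1175 lower. After adjustment 2.41% of all genes passed as higher and 1.55% as lower, so a count of 0 in 16 is near the background. In knockout 2 rose and 8 fell (12.5% and 50.0%, against 20.9% and 18.4% of all genes). Rb1, which encodes the retinoblastoma protein, had 1083, 1331 and 1262 in knockout at 30 h, against 2034, 2195 and 2215 at 18 h (-0.81). Between the genotypes 4 were higher and 8 lower in knockout at 30 h (25.0% and 50.0%, against 24.3% and 28.6% of all genes), and 6 higher and 8 lower at 18 h (37.5% and 50.0%, against 26.3% and 33.8%). The inhibitor of cyclin D kinases Cdkn2b had 172, 138 and 133 in knockout at 30 h and 175, 132 and 141 in knockout at 18 h, against 1448, 1471 and 1452 in wild type at 30 h and 1502, 1531 and 1675 in wild type at 18 h. The knockout values of Cdkn2b lay at or below the level of the filter on dim genes, 175. Cdkn2c, of the same family, had a log2 difference of -1.38 at 18 h, and the probe set of Cdkn2a, whose transcripts encode p16 and p19ARF, one of -1.11. Not all members of the list were lower. Cdkn2d, of the same inhibitor family, was higher in knockout by 0.76 at 30 h and 1.12 at 18 h, and the repressive E2F gene E2f6 by 1.01 at 30 h and 0.79 at 18 h.

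Mitosis genes were higher in knockout at both times. Of 24 mitosis genes 21 were higher and 0 lower at 30 h (24.3% of all genes were higher and 28.6% lower). At 18 h 22 were higher and 0 lower (26.3% and 33.8% of all genes). At both times 0 were lower also at an unadjusted p under 0.05. At that unadjusted level 4269 of all 13956 genes were lower at 30 h and 4930 at 18 h. The mitosis genes had medians of 0.53 at 30 h and 0.63 at 18 h, where the 47 replication genes had -0.10 and 0.35. With time in wild type 3 of 24 rose and 0 fell (9 and 0 at an unadjusted p under 0.05), led by the mitotic kinase gene Plk1 at 0.37. The rises are 12.5% of the list, where 2.41% of all genes rose and 1.55% fell. At the unadjusted level 1382 of all 13956 genes were higher and 1175 lower. The difference of the time effects was lower in 4 and higher in 0 (7 and 0 at an unadjusted p under 0.05), led by the chromosomal passenger gene Cdca8 at -0.68. The 4 are 16.7% of the list, where 10.1% of all genes were lower and 10.2% higher. At the unadjusted level 2150 of all 13956 genes were lower and 2427 higher. The difference between the lists was not tested.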

How the data were processed

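From each of 12 samples 100 ng of RNA went onto an array. The submitters' processing notes name Affymetrix Expression Console 1.1 and PLIER 2.0, and the deposited table gives intensity per probe set, not on a log scale. The sources used here do not state how the authors scaled arrays to each other. Names came from the platform annotation, and 21698 of 21789 probe sets with 1 symbol were matched to RefSeq (GRCm38.p6) by Entrez number. For each gene the probe set of highest mean was kept. The tests used log2(intensity + 16) and left out genes whose mean fell under the 30th percentile, an intensity of about 175. Fold changes of dim genes are too small on this scale. The number of arrays limits the precision.

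Group means of all 12 arrays came from 1 limma fit (version 3.58.1, R 4.3.3, lmFit and trended eBayes, residual df of 8 and prior df of 7.98). The p-values are two-sided moderated tests, Benjamini-Hochberg adjusted over the 13956 genes of each of 6 comparisons and called under 0.05. Alternatives were other offsets, filters, scalings, variance models and probe set rules, a 1.5-fold threshold, a replicate block, and leaving out every array in turn. The members and lists were chosen with earlier results of these data known. From the other lists, each comparison names up to 3 called rises and 3 called falls of largest size. The motif words were chosen after the values had been seen.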

Additional observations from a re-analysis of the deposited data

Results flagged for a closer look

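The results listed here are those in which the change between 18 h and 30 h differed between the genotypes by the interaction test of limma, an outcome seen in 24 of the 47 genes, all with the lower time effect in knockout. No group has more than 3 arrays, so no array was tested as an outlier.

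The difference of the log2 time effects, knockout minus wild type, was -0.92 for Cdt1, -0.72 for Cdc6, -0.69 for Mcm2, -0.65 for Mcm5, -0.61 for Mcm3, -0.49 for Orc6, -0.42 for Mcm6 and -0.39 for Mcm4 among the licensing genes. Among fork and polymerase genes it was -0.97 for Pold1, -0.76 for Cdc45, -0.75 for Prim2 and -0.50 for Gins2. Rpa2 had -0.92, Lig1 -0.73, Rfc3 -0.56 and Pcna -0.35 in the clamp and Okazaki group. The chromatin genes had -0.57 for Uhrf1, -0.43 for Chaf1b and -0.33 for Chaf1a. E2f1 had -0.53, Ccne2 -0.44, E2f8 -0.39, E2f2 -0.37 and Rrm1 -0.34. Of the 24 calls 18 held under every alternative other than the fold threshold.

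On the second principal component knockout 18 h replicate 1 had -9.34, replicate 2 had -25.2 and replicate 3 had -24.9, while all knockout 30 h arrays had positive values. Without it 29 of the 47 differences were called lower and 2 higher, with 1886 and 2259 over all genes. Its part in the single calls was not tested beyond this.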

How the results depend on the processing

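Results were recomputed under 27 alternatives, or 26 for the difference of time effects and the average over times, which use all arrays in any case, and no called gene changed direction under any of them. Of the calls, 31 of 34 at 18 h, 19 of 25 at 30 h, 17 of 33 with time in wild type, 11 of 20 with time in knockout and 18 of 24 differences of time effects held in all of them other than the fold threshold. With a 1.5-fold threshold 11 genes were higher and 3 lower in knockout at 18 h, 1 and 5 at 30 h, and 3 and 4 averaged over the times, 3 rose in wild type, 3 rose and 1 fell in knockout, and 10 time effects were lower in knockout. Of all 13956 genes 1772 were then higher and 2324 lower at 18 h, 1337 and 1774 at 30 h, and 1472 and 1933 averaged. With time 41 of all genes rose in wild type, 761 rose and 672 fell in knockout, and 623 time effects were lower in knockout. With each probe set as its own feature 21 genes rose in wild type, where 137 of all 24890 probe sets rose. The knockout rises became 6 with array medians set equal, 6 after cyclic loess and 16 with array weights. Over all genes 2912 rose in the main test, and 2454, 2412 and 4208 in these settings, in the same order. Higher time effects in knockout, 0 in the main test, numbered 2 with array weights and 1 each with robust variances, a filter at the 50th percentile and the replicate block. Over all genes they numbered 1427 in the main test, and 2913, 1440, 1389 and 1360 in these settings, in the same order. With 1 array left out, wild-type rises ran from 17 to 37, knockout rises from 5 to 12, knockout falls from 6 to 11 and higher time effects from 0 to 2. Over all genes these counts ran from 74 to 605, from 2249 to 3278, from 2029 to 2714 and from 895 to 2259. The cause of these moves was not tested.

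The replicate block gave 27 higher and 7 lower at 18 h, 10 and 15 at 30 h, 31 rises in wild type, 9 rises and 10 falls in knockout and 23 lower time effects. Over all genes it gave 3620 and 4642 at 18 h, and 3311 and 3940 at 30 h. With time it gave 279 rises in wild type, 2853 rises and 2522 falls in knockout and 1365 lower time effects. Replicate numbers were not taken as pairs. With group means taken out, the 18 correlations between arrays of the same number ran from -0.456 to 0.454. Only 1 of 12 arrays had its own number as the best match in every other group. Among arrays of number 2, wild-type 18 h had 0.454 with wild-type 30 h and 0.330 with knockout 30 h. Wild-type 30 h had 0.343 with knockout 30 h. Knockout 18 h had -0.0078 to 0.081 with these arrays. Of different numbers, wild-type 30 h replicate 1 and knockout 30 h replicate 3 had 0.463.

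Uncalled values near 0 changed sign. At 18 h Pola1 had 0.061 with array medians equal, 0.060 after quantile normalization and 0.044 after cyclic loess, and Rfc5 had 0.033 with medians equal and 0.029 after quantile normalization. In knockout with time Rrm1 had -0.018 with medians equal, -0.045 after quantile normalization and -0.058 after cyclic loess, Mcm5 had -0.000495 and Chaf1b -0.00634 after cyclic loess, and Chaf1a had 0.029 with array weights. The difference of time effects was -0.027 for Timeless with medians equal, 0.000561 for Mcm10 with an offset of 64, and 0.052 for Rfc5 and 0.000592 for Ccnd1 with array weights, which also gave Rfc4 -0.00432 in wild type. With 1 array left out the ranges at 30 h were -0.024 to 0.11 for Mcm3 and -0.058 to 0.021 for E2f2, and at 18 h -0.075 to 0.042 for Pola1 and -0.16 to 0.036 for Rfc5. For knockout with time they were -0.070 to 0.024 for Cdc6, -0.15 to 0.020 for Tipin, -0.14 to 0.00079 for Pola1, -0.054 to 0.040 for Rpa1, -0.056 to 0.013 for Chaf1a, -0.043 to 0.043 for Rrm1 and -0.059 to 0.021 for E2f2. For the difference of time effects they were -0.17 to 0.00762 for Orc1, -0.063 to 0.049 for Mcm10 and -0.11 to 0.093 for Rfc5.

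With 3 arrays a group and no statement that replicates were separate cultures, the tests speak for these arrays. The scaling between arrays that the authors ran is unknown, and no scaling tried moved the median of all genes by more than 0.1.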
